A study of Mus musculus with 8 samples.

Results

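Klrk1 encodes NKG2D, an activating receptor of cytotoxic lymphocytes, and was analysed here together with 9 other transcripts. They included its adapter Hcst, the granule genes Gzmb, Prf1 and Nkg7, the CD8 chains Cd8a and Cd8b1 and the cytokine receptor chain Il2rb. The others were the T cell receptor subunit Cd3e and the CD4 co-receptor Cd4. These 10 members were picked by symbol from the 53247 genes of the deposited table. They had been selected on the values of these same samples, including the genotype contrast, so their differences between genotypes are a description and carry no test. The question asked of single samples was whether Klrk1 varied with its adapter or with the lymphocyte effector genes.

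The samples were tumor-associated macrophages (TAMs) from subcutaneous Lewis lung carcinoma (LLC) tumors, which arise from a lung cancer cell line of the same mouse strain. Both groups were C57/BL6 mice, given the same LLC cells at 8 weeks of age and collected on day 14, at 10 weeks of age. The 4 WT samples came from mice with miR-21 intact, and the 4 miR-21 null samples from mice that lacked miR-21 in every host cell, lymphocytes included, whereas the implanted LLC cells kept their own copies in both groups. Cells were sorted as CD45+, CD11b+, MHC II+ and F4/80+, and each library is labelled a biological replicate. The title of miR-21 null replicate 1 joins a pair of sample numbers. Whether it was a pool is not given in the sources used here, and it was counted as 1 replicate.

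NKG2D has no signaling motif of its own. On the cell surface it pairs with DAP10, the product of Hcst, which recruits PI3K and Grb2, and in mouse also with DAP12, the product of Tyrobp, which recruits Syk and Zap70. Its ligands, the Raet1, H60 and Ulbp1 proteins, resemble MHC class I molecules and are induced by stress, infection and transformation. NK cells carry NKG2D constitutively, mouse CD8+ T cells gain it on activation, and activated mouse macrophages can express it too. Granzyme B, a serine protease, and perforin, a pore-forming protein, are released together from cytotoxic granules, and NKG7 is a protein of the granule membrane.

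The sort markers were abundant in all 8 libraries. The 14 macrophage markers summed to 20811 to 24096 CPM (counts scaled to a library of 1e+06 reads) in WT TAMs and to 20516 to 25320 CPM in miR-21 null TAMs. Depth, read from the steps between low values, was 20.2 to 33.4 in units of 1e+06 reads per sample, so that 1 read was worth 0.0300 to 0.0495 CPM. The deleted gene could not check the labels, because Mir21a was listed at 0.0001 CPM, the lowest value of the table, in all samples. Vmp1, whose transcript holds Mir21a, separated the genotypes at 115 to 133 CPM in WT and 373 to 426 CPM in miR-21 null TAMs.

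The mature strand of the deleted microRNA was compared with the 3′ UTRs of the members. In mature miR-21a-5p (RefSeq, GRCm38.p6, chr11:86584120-86584141, minus strand) the capitals mark the seed, bases 2 to 8. The longest annotated 3′ UTR of Klrk1 (GENCODE vM21, 2463 bases) held the 7-base complement of this seed, ATAAGCT, at 2 positions, and neither match was followed by the A that would make 8 bases. The first lies at chr6:129611368-129611395 and the second at chr6:129610830-129610857 (GRCm38, minus strand), with capitals marking the match and lower case the bases around it.
miR-21a-5p: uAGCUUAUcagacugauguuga
Klrk1, 3′ UTR base 1401: ataatcccaaATAAGCTgagaccagagg
Klrk1, 3′ UTR base 1939: cccaaaggctATAAGCTtatacaaagaa
Of the 3 protein-coding Klrk1 transcripts with an annotated 3′ UTR, 1 holds these sites, and the table does not resolve transcripts. The longest 3′ UTRs of the other 9 members held no match of 7 or 8 bases. Among the 11449 tested genes with a 3′ UTR, 12.4% held a match of 7 or 8 bases (ATAAGCT or TAAGCTA, sense strand only) and 2.24% one of 8 bases (ATAAGCTA, which contains both), at a median length of 1176 bases. A match is a description of the sequence and shows no binding.

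Klrk1 was several-fold higher in miR-21 null TAMs, and no WT sample reached the level of any miR-21 null sample. It stood at 12.7, 8.38, 11.0 and 18.3 CPM in WT replicates 1 to 4, and at 48.7, 43.4, 38.9 and 48.6 CPM in miR-21 null replicates 1 to 4. The means were 12.6 ± 4.19 and 44.9 ± 4.73 CPM (SD, n = 4 each), a ratio of 3.56, and the difference on the log2(CPM + 1) scale was 1.80 (SE 0.18). The groups did not overlap, and the miR-21 null samples lay close together, the highest being 1.25 times the lowest. In the WT group replicate 4 was highest and replicate 2 lowest, 2.18-fold apart. Klrk1 (ENSMUSG00000030149.15) lies on chr6:129610323-129623864, minus strand.

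Hcst, the DAP10 adapter that NKG2D signals through, was not higher beside Klrk1. It was at 2.74, 3.46, 3.07 and 3.70 CPM in WT and at 2.61, 2.97, 2.23 and 2.05 CPM in miR-21 null TAMs. The groups overlapped, with the miR-21 null mean of 2.46 ± 0.41 CPM below the WT mean of 3.24 ± 0.43 CPM and a log2 difference of -0.29 (SE 0.12). Hcst (chr7:30417712-30419854, minus strand) lies 126 bases from Tyrobp on the opposite strand, which was at 323 to 356 CPM. Strand use in counting is not given in the sources used here, so a share of stray Tyrobp reads in the Hcst value was not tested.

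Gzmb was higher on average in miR-21 null TAMs, but the genotypes overlapped through WT replicate 4. WT samples 1 to 4 gave 5.62, 5.30, 6.83 and 14.6 CPM, and miR-21 null samples gave 17.8, 10.2, 7.49 and 18.3 CPM. WT replicate 4 exceeded miR-21 null replicates 2 and 3, and the log2 difference was 0.69 (SE 0.33). Gzmb lies on chr14:56258838-56262260, minus strand, in a cluster of granzyme genes.

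Prf1 had a larger difference than Gzmb with the same overlap. It was at 2.01, 2.39, 4.01 and 7.01 CPM in WT and at 14.7, 6.18, 5.84 and 12.2 CPM in miR-21 null TAMs, a log2 difference of 1.16 (SE 0.35). WT replicate 4 again lay above miR-21 null replicates 2 and 3, whereas replicates 1 and 4 of the miR-21 null group stood above every WT sample. Prf1 lies on chr10:61297833-61304680, plus strand.

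Nkg7 was among the lowest members. It was at 0.869, 0.658, 1.48 and 1.75 CPM in WT, the lowest of them from 19 reads, and at 5.19, 2.97, 1.15 and 3.94 CPM in miR-21 null TAMs. The log2 difference was 0.91 (SE 0.30). Replicate 3 of the miR-21 null group lay within the WT range and the other 3 above it. Nkg7 lies on chr7:43437073-43438249, plus strand.

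Cd8a, the CD8 chain shared by CD8αα and CD8αβ dimers, was the member besides Klrk1 whose miR-21 null samples all lay above WT. WT values were 2.01, 1.32, 2.18 and 2.19 CPM, and miR-21 null values were 11.6, 6.04, 2.80 and 6.35 CPM. The means were 1.92 ± 0.41 and 6.71 ± 3.66 CPM, with a log2 difference of 1.28 (SE 0.30). The gap between the groups was narrow, because miR-21 null replicate 3 stood just above the highest WT sample. Cd8a lies on chr6:71373427-71379173, plus strand.

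Cd8b1, the β chain found on conventional CD8+ T cells, was the lowest member. It was at 0.769, 0.727, 0.396 and 1.27 CPM in WT, the lowest from 8 reads, and at 4.18, 1.32, 1.11 and 1.62 CPM in miR-21 null TAMs. WT replicate 4 lay above miR-21 null replicate 3, and miR-21 null replicate 1 stood apart from the other 3. The log2 difference was 0.69 (SE 0.27), and 0.41 without miR-21 null replicate 1. Cd8b1 lies on chr6:71322788-71337494, plus strand.

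Il2rb and Cd3e, carried by T cells generally and in the case of Il2rb by NK cells, spread across the WT range in the miR-21 null group. Il2rb, the receptor chain that binds IL-2 and IL-15, was at 4.25, 4.74, 6.18 and 8.05 CPM in WT and at 11.0, 6.36, 3.69 and 7.28 CPM in miR-21 null TAMs, a log2 difference of 0.20 (SE 0.26). Cd3e was at 2.60, 2.18, 2.08 and 1.95 CPM in WT and at 5.58, 2.37, 0.922 and 4.02 CPM in miR-21 null TAMs, a log2 difference of 0.26 (SE 0.31). Without miR-21 null replicate 1 the log2 differences were -0.015 for Il2rb and -0.00071 for Cd3e, and without miR-21 null replicate 3 they were 0.44 and 0.59. For both genes that library was the highest of all 8 samples and miR-21 null replicate 3 the lowest. Il2rb lies on chr15:78479256-78495271 and Cd3e on chr9:44998740-45009627, both on the minus strand.

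Cd4 went the other way and was the member with the widest difference. It was at 13.8, 30.0, 16.9 and 5.93 CPM in WT and at 3.40, 2.85, 0.845 and 1.69 CPM in miR-21 null TAMs. The means were 16.6 ± 10.0 and 2.19 ± 1.15 CPM, the WT mean being 7.59 times the miR-21 null mean, with a log2 difference of -2.35 (SE 0.41). No miR-21 null sample reached the lowest WT sample, replicate 4, which was also the WT sample with the most Klrk1. Cd4 lies on chr6:124864692-124888221, minus strand.

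**Figure D1:**
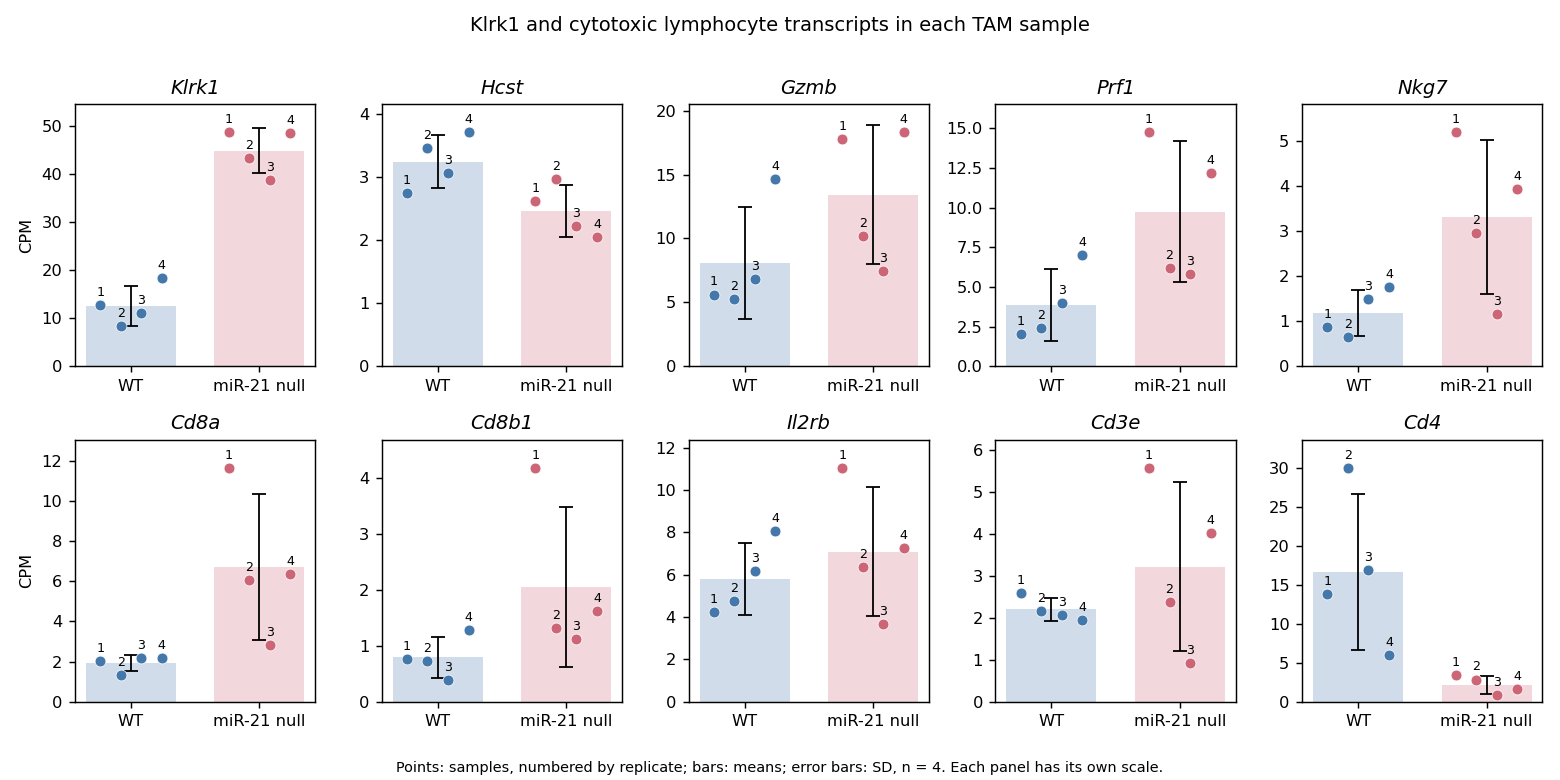
CPM of the 10 members in each sample, with one panel per gene and its own linear axis from 0. Points are samples numbered by replicate, bars are means and error bars are SD (n = 4). Klrk1 and Cd8a lie higher in all miR-21 null samples, Cd4 lies lower in all of them, and the genotypes overlap for the other 7.

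As a group, 8 of the 10 members had a higher and 2 a lower log2 mean in miR-21 null TAMs, with a median difference of 0.69 against -0.10 over all 13850 genes tested. All 10 passed the filter on low values. A gene was called where limma gave an adjusted p no higher than 0.005 and the fold change exceeded 1.5, and 7.12% of all genes passed it, 2.89% as higher and 4.23% as lower. Klrk1 passed as higher and Cd4 as lower. Klrk1 kept this place with any 1 library left out, Cd4 lost it without WT replicate 1 or 3 or miR-21 null replicate 3 or 4, and Nkg7 and Cd8a passed without miR-21 null replicate 3. The genotypes did not overlap for 3 members, in 2 with miR-21 null above WT and in 1 below, where 35.1% of all genes had non-overlapping groups, 9.44% with miR-21 null above and 25.7% below. Of all calls 40.6% were higher, a share that became 60.3% after median of ratios rescaling and 59.3% after quantile normalization. These scalings moved the median of all genes by 0.10 and left the direction of all 10 members as it was. The members were selected on this contrast, so nothing is read from these counts. In the sorted bulk samples, more cells of a type and more RNA per cell cannot be told apart.

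Within the miR-21 null group 6 of the other 9 members had the order of Klrk1, each over a wider range. These were Prf1, Nkg7, Cd8a, Cd8b1, Il2rb and Cd3e, with replicate 1 highest, then 4, 2 and 3. Gzmb had the order 4, 1, 2 and 3, which differs from that of Klrk1 in replicates 1 and 4 only. Hcst and Cd4 had other orders, and the share of all genes with the order of Klrk1 was not counted. The highest miR-21 null sample exceeded the lowest by a factor of 6.05 for Cd3e, 4.50 for Nkg7, 4.15 for Cd8a, 3.75 for Cd8b1, 3.00 for Il2rb, 2.53 for Prf1 and 2.44 for Gzmb, against 1.25 for Klrk1 and 1.45 for Hcst. Klrk1 in replicates 1 and 4 differed by less than the value of 1 read, so their order is not resolved. Gzmb thus cannot be set apart from the 6 members by order. In the WT group no other member had the order of Klrk1, although WT replicate 4 was highest for Klrk1 and for 7 of the other 9.

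Set against the genotype mean, Klrk1 had its highest Pearson's r over all 8 samples with Gzmb and the r nearest 0 with Hcst. This order changed with the samples used. For each gene the deviation of every sample from the mean of its own genotype was taken on the log2(CPM + 1) scale, which removes the difference between genotypes, and was compared over the 8 samples with an exact permutation test, two-sided, over every pairing within genotype. The members had been selected on the values of these same samples, so the p-values here and below are given as a description. Gzmb gave Pearson's r = 0.82 (exact p = 0.0104) and Spearman's rho = 0.80 (exact p = 0.0625). After adjustment over the 9 members compared (Benjamini-Hochberg), the exact p-values were 0.0859 for r and 0.141 for rho. Hcst gave r = 0.13 (exact p = 0.790, adjusted 0.790) and rho = 0.10 (exact p = 0.885, adjusted 0.885). Without the 2 samples of largest Klrk1 deviation, WT replicates 4 and 2, r was 0.80 for Gzmb, -0.16 for Hcst and 0.92 for Cd3e. Without WT replicate 4 alone, r was higher for Cd8a (0.67) and Nkg7 (0.64) than for Gzmb (0.61). It was then nearer 0 for Cd4 (-0.23) than for Hcst (-0.45). In the differences between same-numbered samples, r was highest for Hcst, at 0.80 (exact permutation, adjusted p = 0.833). The replicate numbers did not pair the samples, so nothing is read from this value.

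The other granule genes had positive coefficients too. Prf1 gave r = 0.71 (exact p = 0.0608, adjusted 0.109) and rho = 0.70 (exact p = 0.111, adjusted 0.167), with r = 0.53 without those 2 samples. Nkg7 gave r = 0.62 (exact p = 0.0191, adjusted 0.0859) and rho = 0.90 (exact p = 0.0243, adjusted 0.0729), with r = 0.72 without them. All 3 granule genes thus kept a positive coefficient when the extreme Klrk1 samples were left out. None of the 3 passed an adjusted p of 0.05 over all 8 samples with the deposited scaling.

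The CD8 chains had higher rank than linear correlations with Klrk1. The rank order used here includes the unresolved order of Klrk1 in miR-21 null replicates 1 and 4, so a rho of 0.90 or 0.80 is not ranked against the other. Cd8a gave r = 0.49 (exact p = 0.0434, adjusted 0.109) and rho = 0.90 (exact p = 0.0243, adjusted 0.0729), with r = 0.76 in the remaining 6 samples. Cd8b1 gave r = 0.50 (exact p = 0.0851, adjusted 0.128) and rho = 0.90 (exact p = 0.0243, adjusted 0.0729), with r = 0.71 in the remaining 6. Il2rb gave r = 0.60 (exact p = 0.0538, adjusted 0.109) and rho = 0.70 (exact p = 0.111, adjusted 0.167), with r = 0.63 in the remaining 6.

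Cd3e and Cd4 depended on the 2 WT samples. Cd3e gave r = 0.28 (exact p = 0.208, adjusted 0.234) and rho = 0.30 (exact p = 0.559, adjusted 0.719), but r = 0.92 without WT replicates 4 and 2. Cd4 gave r = -0.68 (exact p = 0.149, adjusted 0.192) and rho = -0.10 (exact p = 0.885, adjusted 0.885), and r = 0.49 without them, so its negative coefficient rests on those samples. With the deposited scaling, none of the 9 comparisons passed an adjusted p of 0.05 by r or rho over all 8 samples. After quantile normalization r passed for Gzmb (r = 0.83, exact permutation, adjusted p = 0.0469). With 1 library left out, r passed for Gzmb, Prf1, Nkg7 and Il2rb without WT replicate 1 and for Gzmb, Nkg7 and Cd8a without WT replicate 3 (exact permutation, adjusted p 0.0313 to 0.0469), and r of Hcst was -0.45 without WT replicate 4. Cd3e gave r = 0.08 and Cd4 r = -0.95 without miR-21 null replicate 3, and 0.61 and -0.23 without WT replicate 4.

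**Figure D2:**
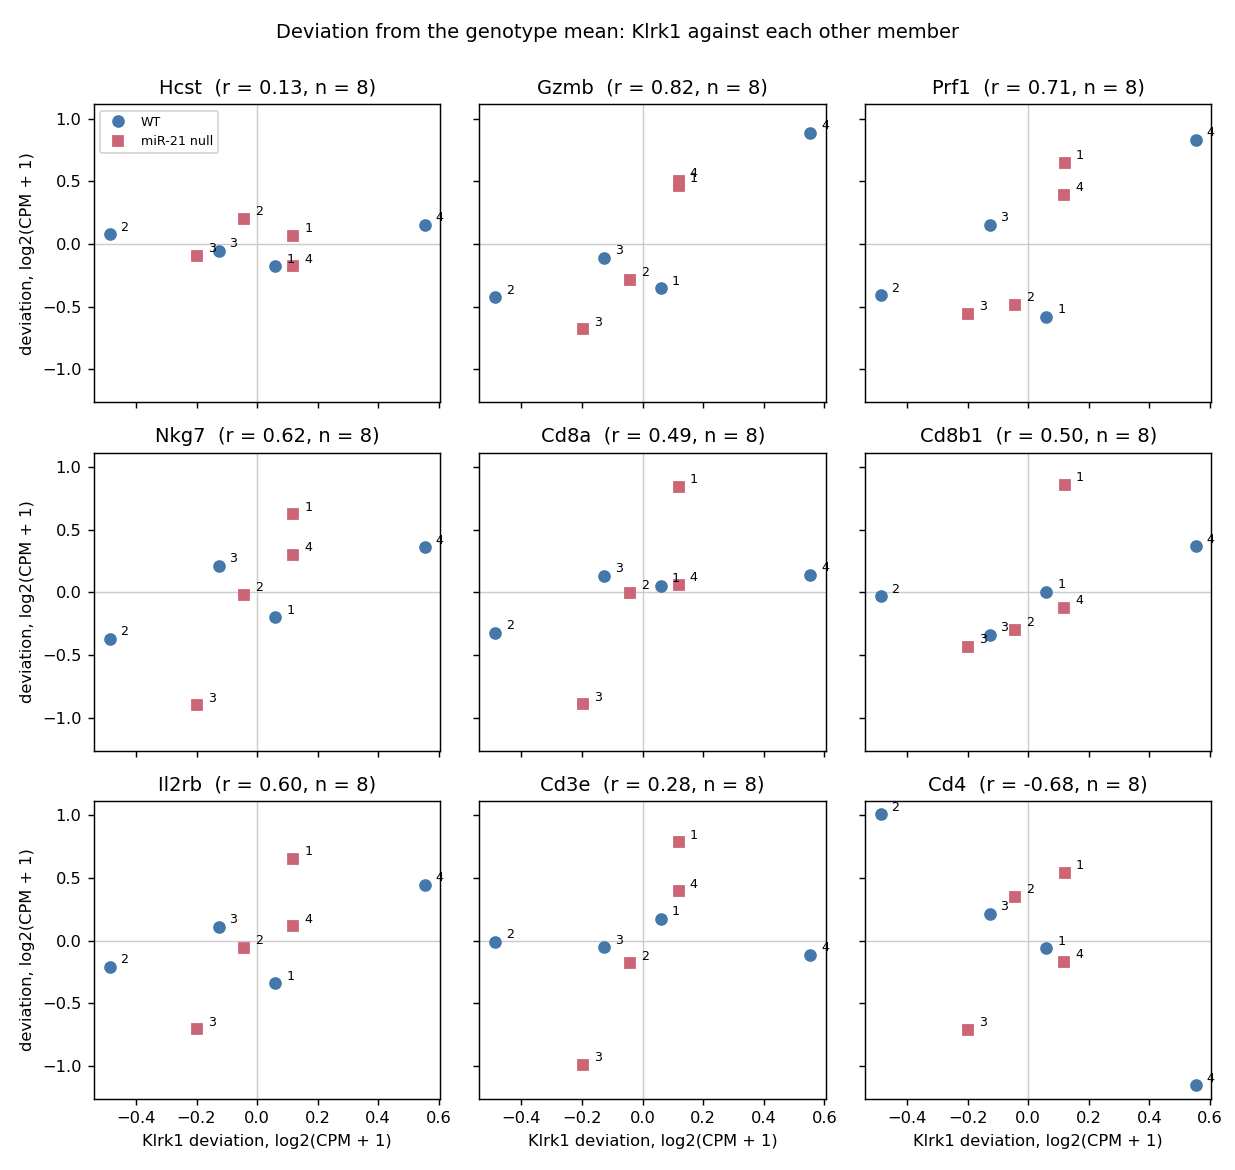
Deviation of Klrk1 from its genotype mean (horizontal axis) against that of each other member (vertical axis), in log2(CPM + 1) units, for 4 WT samples (circles) and 4 miR-21 null samples (squares) numbered by replicate. The miR-21 null samples spread widely along the vertical axis and little along the horizontal one in the panels of Nkg7, Cd8a and Cd3e.

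The ratio of Klrk1 to each other member was taken in every sample. Gene length is not removed from CPM, so a ratio is compared between samples only and not between genes. Klrk1 over Hcst was 2.42 to 4.94 in WT and 14.6 to 23.7 in miR-21 null TAMs, with no overlap. Klrk1 over Gzmb was 1.25 to 2.26 in WT and 2.66 to 5.19 in miR-21 null TAMs, and Klrk1 over Il2rb was 1.77 to 2.99 and 4.41 to 10.5. Against Cd4 the ratio was 0.279 to 3.08 in WT and 14.3 to 46.0 in miR-21 null TAMs. For these 4 denominators every miR-21 null sample lay above every WT sample. The same held for 96.3% of the 13849 other tested genes as denominator, Tyrobp, Klrd1 and Thy1 among them, since Klrk1 itself separated the genotypes, so nothing is read from this count.

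For the other 5 members the ratio overlapped between genotypes. Klrk1 over Cd8a was 5.07 to 8.35 in WT and 4.18 to 13.9 in miR-21 null TAMs, with medians of 6.35 and 7.42. The ratio of the genotype means was 3.56 for Klrk1 and 3.49 for Cd8a. Klrk1 over Nkg7 was 7.43 to 14.6 in WT and 9.38 to 33.7 in miR-21 null TAMs, and Klrk1 over Prf1 was 2.61 to 6.33 and 3.30 to 7.02. Klrk1 over Cd8b1 was 11.5 to 27.9 and 11.6 to 34.9, and Klrk1 over Cd3e was 3.85 to 9.37 and 8.72 to 42.2. The ratios of Klrk1 to Nkg7, Cd8a and Cd3e were highest in miR-21 null replicate 3, in which Cd3e, at 0.922 CPM, was below every WT sample, whereas Klrk1, at 38.9 CPM, was above every WT sample.

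**Figure D3:**
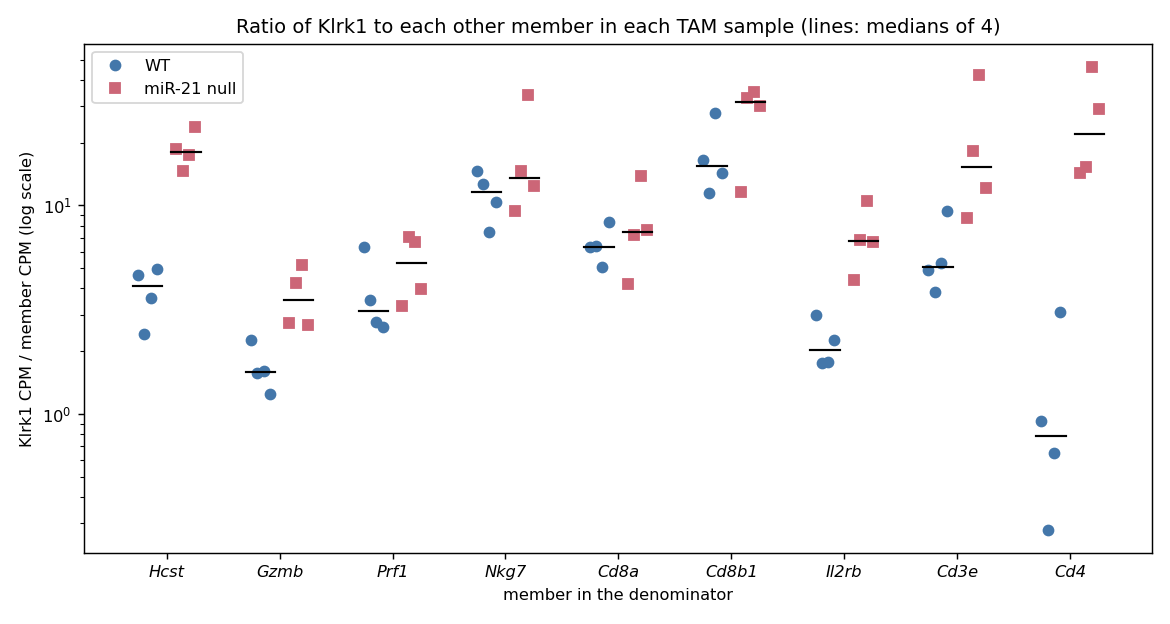
Ratio of Klrk1 CPM to the CPM of each other member (log axis) in the 4 WT samples (circles) and the 4 miR-21 null samples (squares), with lines at the medians. The genotypes separate for Hcst, Gzmb, Il2rb and Cd4 as denominators and overlap for Prf1, Nkg7, Cd8a, Cd8b1 and Cd3e.

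None of the 5 genes closest to Klrk1 in these deviations was a member or on a list of lymphocyte genes. By Pearson's r over the 8 samples, given as a description, they included Tgtp1 (r = 0.97), BC049352 (0.96), Cpxm1 (0.95) and H2-Q7 (0.95). Tgtp1 is an interferon-inducible GTPase and H2-Q7 a nonclassical MHC class I gene. Between genotypes they did not go one way: BC049352 overlapped, with a log2 difference of -0.43, and Cpxm1 was lower in every miR-21 null sample, at -0.84. Tgtp1 was at 2.77 to 5.35 CPM in WT and 41.2 to 53.6 CPM in miR-21 null TAMs, although its reads can be shared with its paralog Tgtp2. H2-Q7 was at 44.8 to 108 CPM in WT and 134 to 153 CPM in miR-21 null TAMs, and in both genes the genotypes did not overlap. Of the 13849 other genes, Gzmb ranked 137th, Prf1 440th, Nkg7 786th, Il2rb 861st, Cd8b1 1383rd, Cd8a 1400th, Cd3e 2916th, Hcst 4286th and Cd4 12577th.

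The partners of Klrk1 that are not members were followed with limma over all 13850 genes, on lists of the same pathways and cell types. These 9 lists held 118 genes, of which 82 were tested and 12 passed the threshold, 9 as higher and 3 as lower in miR-21 null TAMs. That is 14.6% of them against 7.12% of all genes, and their median log2 difference was 0.09. The 12 genes were spread over 7 of the lists. The count was 8 to 11 with any 1 library left out and 6 without the filter on low values.

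Of the NKG2D ligands, Raet1d was the one that rose. It was at 17.2, 7.38, 10.8 and 10.4 CPM in WT and at 29.6, 30.0, 26.7 and 23.3 CPM in miR-21 null TAMs, a log2 difference of 1.24 (SE 0.20, adjusted p = 0.00117 from limma). Raet1d passed with any 1 library left out but missed the threshold without the filter on low values (adjusted p = 0.00888 from limma). Its paralog Raet1e, at 4.45 to 6.44 and 5.92 to 6.60 CPM, and Ulbp1, at 24.8 to 29.8 and 28.0 to 37.1 CPM, overlapped between genotypes and did not pass, with adjusted p-values of 0.0799 and 0.0384. Raet1d and Raet1e overlap in the annotation and are close paralogs, so the split of reads between them is uncertain. H60b and H60c were below the filter, and Raet1a, Raet1b, Raet1c and H60a had no row under those symbols. The longest 3′ UTR of Ulbp1 held the same 7-base match as Klrk1 at 2 positions, on chr10:7442828-7442855 and chr10:7442064-7442091 (GRCm38, minus strand), and those of Raet1d and Raet1e held none. They are shown to set the ligand beside its receptor.
Ulbp1, 3′ UTR base 2706: ctagtcaaagATAAGCTtaaattcattc
Ulbp1, 3′ UTR base 3470: gttgagtgctATAAGCTttcctcagatg

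Downstream of the receptor, 1 of 19 signaling genes passed, a share near the 7.12% of all genes, and it was lower. Vav2, a guanine nucleotide exchange factor, fell from 64.3 ± 10.1 to 33.7 ± 4.39 CPM (SD, n = 4), a log2 difference of -0.91 (SE 0.12, adjusted p = 3.82e-04 from limma). In 2 of the 19 every miR-21 null sample lay above WT (9.44% of all genes), and in 3 every one lay below (25.7%). The 2 were Vav3 at 0.29 (adjusted p = 9.61e-04 from limma) and Pik3cb at 0.53 (adjusted p = 0.00165 from limma), both under the fold limit. Tyrobp, the alternative adapter, was at 342 to 356 CPM in WT and 323 to 346 CPM in miR-21 null TAMs, and its log2 difference of -0.06 (SE 0.05) did not pass (adjusted p = 0.377 from limma). Neither adapter of NKG2D was therefore among the genes called as higher.

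Among the receptors of the NK gene complex, the region of chromosome 6 that also holds Klrk1, 1 of 8 tested genes passed as higher and 1 as lower. The list median was 0.52 against -0.10 over all genes tested. In 5 of the 8 every miR-21 null sample lay above WT (9.44% of all genes), and in 1 every one lay below (25.7%). Klrb1b, an inhibitory NKR-P1 receptor, was at 14.5, 17.3, 28.8 and 45.9 CPM in WT and at 72.8, 59.2, 65.9 and 88.2 CPM in miR-21 null TAMs, a log2 difference of 1.52 (SE 0.30, adjusted p = 0.00356 from limma). Klra17, of the Ly49 family, fell from 5.12 ± 1.59 to 2.05 ± 0.43 CPM, with a log2 difference of -0.98 (SE 0.18, adjusted p = 0.00260 from limma). The remaining 13 of the 21 listed genes were below the filter. With any 1 library but WT replicate 4 left out, Klrb1b missed the threshold (adjusted p up to 0.0122, without WT replicate 2). Klra17 missed it without WT replicate 2 or any 1 miR-21 null library (up to 0.00958, without WT replicate 2), and after either rescaling. Ly49 and NKG2 genes are close relatives, so reads may be shared among them.

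The wider effector list had a median log2 difference of 0.55 against -0.10 over all genes tested. In 6 of its 16 tested genes every miR-21 null sample lay above WT (9.44% of all genes), and in 1 every one lay below (25.7%). The threshold was passed by 3 genes, all higher. They were Ccl5, a chemokine of activated lymphocytes and macrophages, Serpinb9, an inhibitor of granzyme B, and Srgn, the proteoglycan core of secretory granules. Ccl5 rose from 3.52 ± 0.48 to 12.9 ± 6.90 CPM, with a log2 difference of 1.51 (SE 0.27, adjusted p = 0.00207 from limma). Serpinb9 rose from 19.1 ± 3.85 to 45.0 ± 9.77 CPM, with a log2 difference of 1.19 (SE 0.16, adjusted p = 4.64e-04 from limma). Srgn rose from 372 ± 30.5 to 618 ± 68.2 CPM, with a log2 difference of 0.73 (SE 0.09, adjusted p = 2.84e-04 from limma). Ccl5 missed the threshold without any 1 WT library or miR-21 null replicate 2 (adjusted p up to 0.00737, without WT replicate 2). Srgn and Serpinb9 are expressed by macrophages as well as by lymphocytes.

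The lists of the T cell receptor complex and of NK cell markers gave no call at the threshold in either direction. Of 13 tested genes of the T cell receptor complex and its signaling, 0 passed in limma under any alternative, 2 had an unadjusted p under 0.05, and the extremes of the list were Thy1 at 0.38 (SE 0.26) and Cd5 at -0.53 (SE 0.17). Their list summed to 24.5 to 32.4 CPM in WT and to 55.0, 26.5, 15.6 and 29.3 CPM in miR-21 null replicates 1 to 4, the same order as the 6 members above. Of the 10 NK cell markers 3 were tested and 0 passed in limma, 2 had an unadjusted p under 0.05, and 1 passed with the adjusted limit at 0.05, with Klrc1 at 0.68 (SE 0.20) and Gzma at 0.08 (SE 0.33) as the extremes. Their sum was 5.14 to 9.01 CPM in WT and 13.9, 6.88, 5.02 and 8.30 CPM in miR-21 null replicates 1 to 4. No gene of either list was at the lowest value of the table in all samples. Klrd1, at 1.07 to 1.75 CPM in WT and 1.84 to 3.66 CPM in miR-21 null TAMs, and Klrc1, at 0.820 to 1.30 and 1.37 to 3.68 CPM, lay above WT in every miR-21 null sample without passing the threshold. The part of these cells in the members' values was not tested.

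Of the CD4 T helper and regulatory T cell list, 1 of 8 tested genes passed the threshold as lower and 1 as higher. By log2 difference 7 were lower and 1 was higher. In 4 of the 8 every miR-21 null sample lay below WT (25.7% of all genes), and in 1 every one lay above (9.44%). Foxp3, the transcription factor of regulatory T cells, fell from 5.56 ± 1.22 to 2.67 ± 0.51 CPM, a log2 difference of -0.83 (SE 0.15, adjusted p = 0.00235 from limma), and the list median was -0.55 against -0.10 over all genes tested. Foxp3 missed the threshold in 6 of the 8 fits that left out 1 library, those without WT replicate 2 and without miR-21 null replicate 1 being the exceptions (adjusted p up to 0.00840, without miR-21 null replicate 3), and after either rescaling. The gene that passed as higher was Il7r, the IL-7 receptor chain. It rose from 12.0 ± 4.14 to 54.0 ± 11.7 CPM, with a log2 difference of 2.12 (SE 0.22, adjusted p = 1.40e-04 from limma). Il7r was highest in miR-21 null replicate 3, at 71.1 CPM, which of that group held the least Cd3e, Cd8a and Cd4.

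Of the receptors for IL-2 and IL-15, the 2 that rose were not Il2rb. Il15ra rose from 10.2 ± 0.98 to 17.3 ± 1.18 CPM (log2 difference 0.71, SE 0.08, adjusted p = 2.57e-04 from limma), and Il2rg, the common γ chain, rose from 188 ± 5.81 to 311 ± 14.7 CPM (log2 difference 0.72, SE 0.05, adjusted p = 1.63e-05 from limma). Of 8 lymphocyte transcription factors tested, Id2, an inhibitor of E proteins that NK cells and macrophages both use, rose from 71.7 ± 14.3 to 120 ± 12.7 CPM (log2 difference 0.74, SE 0.13, adjusted p = 0.00186 from limma). Id2 missed the threshold without WT replicate 1 or 2 or miR-21 null replicate 3 or 4 (adjusted p up to 0.00669). The genotypes did not overlap for Il15ra, Il2rg and Id2.

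Markers of other cells a sort could carry over were also compared. Of the macrophage markers Fcgr1 rose, by 0.75 (SE 0.10) on the log2 scale, and 13 of 14 did not pass. The list median was -0.06 against -0.10 over all genes. Adgre1, which encodes the sort marker F4/80, lay below WT in all miR-21 null samples at -0.38 (SE 0.06, adjusted p = 0.00140 from limma), under the fold limit. Csf1r also lay below WT in all of them, at -0.48 (SE 0.10, adjusted p = 0.00538 from limma). Of the B cell markers Cd79b fell by 1.45 (SE 0.18), and the list summed to 41.3 to 60.8 CPM in WT and 26.8 to 40.7 CPM in miR-21 null TAMs. Of the dendritic cell markers 0 of 8 passed in limma and 5 had an unadjusted p under 0.05, the extremes being Clec9a at 1.26 (SE 0.27) and Cd209a at -1.28 (SE 0.35), with list sums of 17.4 to 29.5 and 21.7 to 47.1 CPM. Mmp8 of the neutrophil list fell by 0.81 (SE 0.16), with list sums of 802 to 1199 and 596 to 774 CPM. Col1a1 and Pdgfrb of the tumor and stromal list fell by 2.29 (SE 0.47) and 1.22 (SE 0.14), with list sums of 214 to 382 and 227 to 306 CPM. Mmp8 missed the threshold without any 1 WT library or miR-21 null replicate 4 (adjusted p from limma up to 0.0121), and Col1a1 without any 1 library but WT replicate 2 and miR-21 null replicate 2 (up to 0.0168). Both also missed it after either rescaling. The part of these cells in the members' values was not tested.

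**Figure D4:**
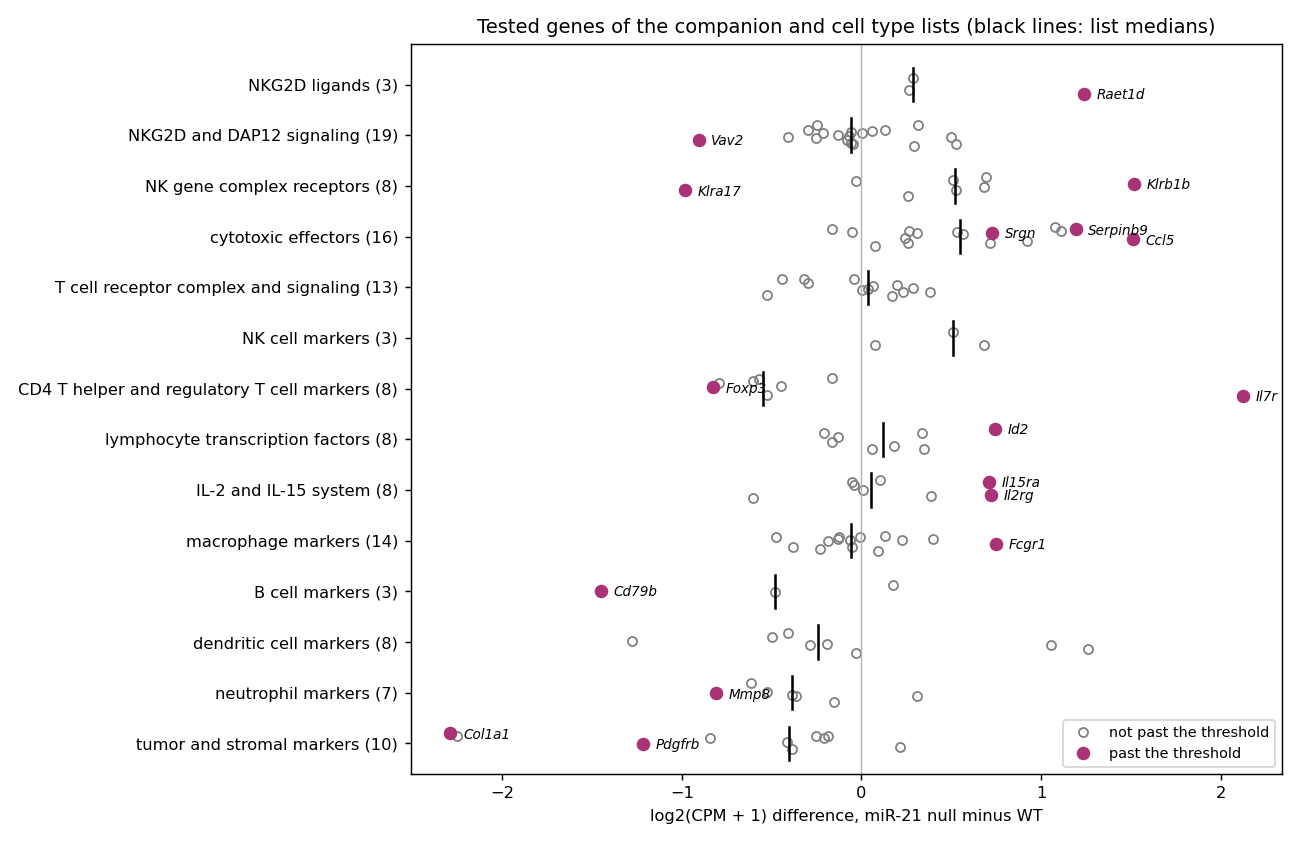
Difference between genotypes in log2(CPM + 1) (horizontal axis, miR-21 null minus WT) for the tested genes of 14 lists, with the number tested in brackets. Filled points passed the threshold in limma, open points did not, and black lines are list medians. No gene of the T cell receptor and NK cell lists is filled.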

How the data were processed

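The authors deposited 1 table of CPM values for the 8 TAM samples, each value raised by 0.0001. The submitters' processing notes name STAR, Partek 7.0 and mm10, and the libraries were made with a KAPA mRNA HyperPrep kit. The counting rule and strand are not given in the sources used here. From the deposited CPM, log2(CPM + 1) was computed, so that a fold change understates that of low genes. Genes averaging under 1 per 1e+06 of the column totals were dropped, which left 13850 of 53247. Genotype was tested on these in limma 3.58.1 (R 4.3.3, eBayes with trend), and p-values were adjusted over all of them (Benjamini-Hochberg). The limits of the study were kept, an adjusted p no higher than 0.005 and a fold change above 1.5. Low CPM values were whole multiples of 1 read for 72.7% to 73.7% of values per sample (within 0.02 reads), so reads were not recovered and no count model was run. Depth limits members of a few CPM to few reads, and p-values measure only the spread between these samples, which are not otherwise said to be separate mice.

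The members and lists were chosen with earlier results of these data known. Named were all members, of each list the genes past the threshold or otherwise its highest and lowest difference, the NKG2D ligands above 0, the 5 genes most like Klrk1 in deviations within genotype, Mir21a, Vmp1 and close neighbours of members. Some genes that this rule selects are not reported here. Genes named beyond this (Tyrobp, Vav3, Pik3cb, Adgre1, Csf1r, Klrd1 and, in the ratios, Thy1) were chosen after their values were seen. Coordinates are those of GENCODE vM21 (GRCm38), in which 97.1% of the matched genes had the same start. 3′ UTRs are the longest annotated per gene. Scripts ran in Python 3.11.15 with scipy 1.17.1 and matplotlib 3.10.9. The limma step was tested on simulated data of 13850 genes: of 50 genes given each change, it called 98% at a log2 change of -2, 80% at -1, 82% at 1 and 92% at 2 in the right direction, and 1 unchanged gene. Alternatives were other pseudocounts, filters, scalings, limits, a replicate block and leaving out each library.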

Additional observations from a re-analysis of the deposited data

Results flagged for a closer look

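Of the 20 groups of 4 samples examined (10 members in each genotype), 2 held a sample whose gap to its nearest neighbour was too large a share of the range by Dixon's limit for 4 samples. Chance flags about 1 in 20 groups. Gzmb was at 14.6 CPM in WT replicate 4, against 5.30 to 6.83 CPM in the other 3 WT samples. The same library was the highest WT sample for Klrk1, Hcst, Prf1, Nkg7, Cd8a, Cd8b1 and Il2rb and the lowest for Cd3e and Cd4. Cd8b1 was at 4.18 CPM in miR-21 null replicate 1, against 1.11 to 1.62 CPM in the other 3 miR-21 null samples. That library was also the highest miR-21 null sample for Klrk1, Prf1, Nkg7, Cd8a, Il2rb, Cd3e and Cd4.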

How the results depend on the processing

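Depth limits Cd8b1 and Nkg7, with 8 and 19 reads in their lowest samples. The threshold count over all genes, 986, became 452 with a pseudocount of 10, 515 without the filter on low values and 1982 without the fold change limit, and 684 to 1002 with any 1 library left out. The list genes past the threshold, 12, became 6 without the filter, where more genes are adjusted for. Per list, 37 other counts moved by over 1.5 times, 14 of them in the NK gene complex list and 12 in the CD4 T helper list. The members past the threshold, 2, became 1 with a pseudocount of 10 and 1 to 3 with any 1 library left out. A pseudocount of 10, which compresses low genes by construction, changed the log2 differences to 1.29 for Klrk1, -0.088 for Hcst, 0.37 for Gzmb, 0.50 for Prf1, 0.24 for Nkg7, 0.46 for Cd8a, 0.15 for Cd8b1, 0.10 for Il2rb, 0.10 for Cd3e and -1.06 for Cd4, and one of 0.1 gave 1.17 for Cd8b1. Quantile normalization gave -0.13 for Hcst, and r = 0.83 for Klrk1 with Gzmb (exact permutation, adjusted p = 0.0469). With any 1 library left out the log2 difference was -0.015 to 0.44 for Il2rb and -0.00071 to 0.59 for Cd3e, both reversed without miR-21 null replicate 1. Over the same fits r with Klrk1 was 0.61 to 0.89 for Gzmb, 0.43 to 0.83 for Prf1, 0.57 to 0.69 for Nkg7, 0.43 to 0.67 for Cd8a, 0.45 to 0.67 for Il2rb, 0.36 to 0.73 for Cd8b1, 0.08 to 0.61 for Cd3e, -0.95 to -0.23 for Cd4 and -0.45 to 0.43 for Hcst, the last reversed without WT replicate 4. The cause was not tested.

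The replicate numbers did not pair the samples: deviations of same-numbered samples correlated at 0.08, -0.11, -0.14 and 0.22 across genes. The fit with a replicate block called 922 genes, and in the 4 paired differences r of Klrk1 was 0.80 with Hcst, 0.47 with Gzmb, 0.30 with Prf1, 0.35 with Nkg7 and -0.25 with Cd3e, so the order of Hcst and the granule genes was turned round (exact permutation, adjusted p = 0.833 for each). Of the 12 list genes called, Foxp3 missed the threshold under the block. Foxp3 and Klra17 missed it after median of ratios rescaling and quantile normalization, Klrb1b without the trend, and Klra17, Ccl5, Foxp3 and Il15ra with a pseudocount of 10. Without the filter Raet1d, Klrb1b, Klra17, Ccl5, Foxp3 and Id2 missed it. Of the other cell markers, Mmp8 and Col1a1 missed it under the block, either scaling, no trend and no filter, Col1a1 with a pseudocount of 0.1, and Pdgfrb with one of 10. The filters and the test without trend were not run for the members, and no other direction of a member or its r changed under these alternatives, beside the changes of r for Hcst and Cd4 in the 6 samples without WT replicates 4 and 2.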
